A study of Mus musculus with 26 samples.

Results

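Potassium channel genes were taken as the autosomal protein-coding mouse genes whose symbol begins with Kcn, which gave 92 genes of 20558. Their promoters reached 1.5 kb either side of each of 129 RefSeq start sites (mm10, GRCm38.p6), and in each of 12 tables of regions the region with most overlap stood for the gene. The regions had been measured by ChIP and by reChIP, in which chromatin bound by a first antibody is eluted and bound again by a second, in order to recover fragments that carry both marks. Signal of the first antibody can carry through into the second step, and was not measured in these libraries. K4-K27 denotes H3K4me3 followed by H3K27me3, K27-K4 the reverse order, and the totals are the share of chromatin set aside after the first immunoprecipitation. All 26 libraries came from E14 mouse embryonic stem cells, an established line, grown in serum/LIF with no other treatment, with the same number of cells in each sample. The E14 libraries were from non-clonal wild-type cells in replicates 1 and 2. The other libraries came from wild-type (WT) clones 57 and 58 and from DPPA2/4 double knockout (DKO) clones 43 and 53, which lack the epigenetic priming factors DPPA2 and DPPA4. Each group held 2 libraries per ChIP, and IgG–IgG controls existed for E14 replicate 1 and WT clone 57 but for neither DKO clone. The clones had been made in earlier work, and the labels place all libraries in the same line. A genotype was therefore 2 clones, and an effect of the knockout and a difference that arose between clonal lines cannot be told apart beyond the spread of these clones.

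Potassium channels let potassium ions leave or enter cells and so set the resting potential, end action potentials and pace rhythmic firing. Voltage-gated channels are tetramers of pore subunits (Kcna, Kcnb, Kcnc, Kcnd, Kcnh and Kcnq families), inward rectifiers are made of Kcnj subunits, background leak channels of tandem-pore Kcnk subunits, and calcium- or sodium-activated channels of Kcnm, Kcnn and Kcnt subunits. The Kcnf, Kcng, Kcns and Kcnv genes encode silent subunits, which form no channel alone and alter Kcnb channels when they join them, while Kcnab, Kcne and Kcnip genes encode auxiliary proteins that bind pore subunits. Most of these genes act in neurons, heart, muscle or secretory tissue and are little used in embryonic stem cells. In such cells promoters of developmental genes often carry H3K4me3, a mark of active promoters, together with H3K27me3, the mark of Polycomb repression, and this bivalent state is held to keep genes poised.

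The read totals to which the deposited values had been scaled, recovered from the step between low values, lay between 6741244 (K27-K4 of E14 replicate 1) and 47903462 (K27-K4 of E14 replicate 2). They were taken as the depth behind each value, and the number of reads sequenced was not analysed here. The deposited numbers are on a log2 scale of RPM, that is reads per library size, divided by region length in kb, without subtraction of the IgG–IgG signal. E14 replicate 1, E14 replicate 2 and all clones were sequenced as separate batches, so that E14 cells and clones, or the E14 replicates, cannot be told apart from their batches, whereas WT and DKO clones shared a batch. The stem cell genes Pou5f1, Nanog, Sox2, Zfp42, Esrrb, Klf4, Tdgf1 and Utf1 each had a total H3K4me3 region at their promoter in E14, WT and DKO cells. The promoters of Dppa2 and Dppa4 kept total H3K4me3 in the DKO clones (Dppa4 2.34 and 1.45 in WT, 2.39 and 1.56 in DKO), so this mark does not check the knockout. Of all regions tested, the median DKO minus WT difference was -0.15 for K27-K4, 0.13 for total H3K4me3 and 0.11 for total H3K27me3, shifts against which the differences below may be read, and -0.01 for K4-K27.

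The first question was how many potassium channel promoters were listed as regions in both reChIP orders. Such listing is looser than the paper's own call of bivalent promoters, which kept fewer genes, and does not by itself show both marks. Over the E14 K27-K4 regions of all genes, median total H3K27me3 minus IgG–IgG was -0.58, against 0.77 for potassium channel genes. In E14 cells 77 of 92 (83.7%) had a region in both reChIP tables, against 64.0% of all autosomal protein-coding genes (13158). For the totals the order differed by mark. A total H3K4me3 region was listed at 51 potassium channel promoters (55.4%, against 58.5% of all genes), and a total H3K27me3 region at 48 (52.2%, against 13.2%). In the WT clones 74 promoters (80.4%) were in both reChIP tables, against 34.1% of all genes, and in the DKO clones 63 (68.5%, against 32.0%). A region in all 12 tables was found at 14 potassium channel promoters (15.2%, against 3.84% of all genes). No promoter had a total H3K27me3 region without a reChIP region in some table.

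The 9 genes with no region in any table were Kcna10, Kcnj13, Kcnj14, Kcnj15, Kcnk7, Kcnk16, Kcnmb1, Kcnmb3 and Kcnrg. Kcne1, the partner of Kcnq1 in the slow repolarising current of the heart, had regions only in E14 tables, which left 82 genes for the comparison of genotypes. All members of the Kcnb, Kcnc, Kcnd, Kcnh, Kcnq and silent subunit groups had a region in both E14 reChIP tables, as did 7 of 8 Kcna, 11 of 14 Kcnk and 10 of 15 Kcnj genes. The silent subunits showed the widest gap between genotypes in this listing. All 10 of them were in the WT K4-K27 and K27-K4 tables, whereas 4 were in the DKO K4-K27 table and 6 in the DKO K27-K4 table. For Kcna genes the counts were 7 and 7 of 8 in WT and 5 and 5 in DKO, and for Kcnh genes 8 of 8 in both tables of both genotypes.

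The strength of the reChIP signal in E14 cells was expressed as the log2 difference from IgG–IgG over the same region, averaged over both orders and both replicates. The median over the 77 promoters was 2.65, against 1.82 over 13158 genes. By library the potassium channel medians were 2.26 and 2.54 for K4-K27 in replicates 1 and 2, and 2.25 and 3.59 for K27-K4. K27-K4 replicate 2, the library with the largest read total, thus gave the highest enrichment, and a single IgG–IgG library served all 4 reChIP libraries. The regions had been called against IgG–IgG in the authors' description, so that some enrichment is fixed by how regions were chosen.

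**Figure D1:**
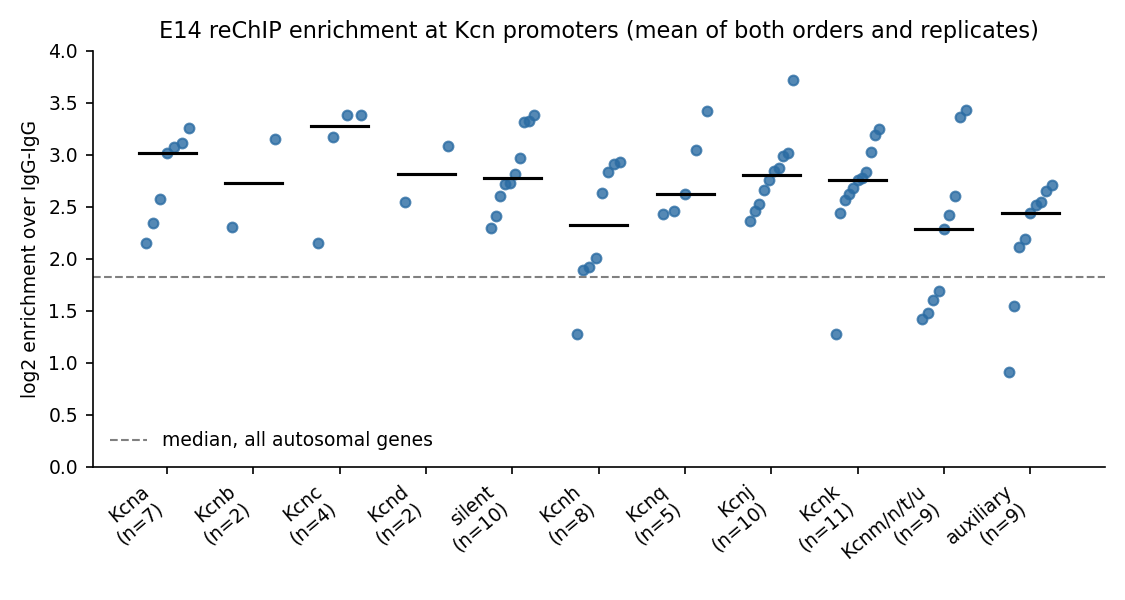
Log2 enrichment over IgG–IgG of each potassium channel promoter in E14 cells (mean of both reChIP orders and both replicates) by subfamily, with a bar at the subfamily median and a dashed line at the median of all autosomal genes, 1.82. Most points lie above the dashed line, and the Kcnc genes have the highest median, 3.27.

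Across subfamilies the medians ran from 3.27 for Kcnc, the channels of fast-spiking neurons, and 3.02 for Kcna down to 2.32 for Kcnh and 2.28 for the Kcnm, Kcnn and Kcnt genes. The inward rectifier Kcnj3, a subunit of G-protein-gated channels in the heart and brain, was highest. K4-K27 enriched it by 2.89 and 3.71 in replicates 1 and 2, and K27-K4 by 3.47 and 4.82 (mean 3.72, or 13.2-fold). It was followed by Kcnmb4, an accessory subunit of calcium-activated channels (3.43), Kcnq5 (3.42), Kcnc1 (3.39) and, close together, Kcnc2 and the silent subunit Kcns3 (both 3.38). The lowest was Kcnip2, an auxiliary protein of the cardiac transient outward current, for which K4-K27 gave -0.21 and 1.28 and the reverse order 0.50 and 2.10 (mean 0.91). At this promoter K4-K27 of replicate 1 was below the IgG–IgG control. A value of at least 1 in all 4 libraries was reached by 72 of the 77.

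Within subfamilies the highest and lowest means were 3.26 for Kcna3, the channel of T lymphocytes, and 2.15 for Kcna7. They were 3.08 for Kcnd2 and 2.55 for Kcnd3, the pore subunits of A-type currents, and the higher Kcnb value was 3.15 for Kcnb2. Among silent subunits the lowest was Kcng4 with 2.30, and among Kcnh genes the means ran from 2.93 for Kcnh3 to 1.28 for Kcnh6. The Kcnj genes reached down to 2.36 for Kcnj12. Among the leak channels Kcnk12 had 3.25 and Kcnk18, a channel of sensory neurons, 1.28. Kcnn1, a small-conductance calcium-activated channel, was lowest of its group with 1.42, and Kcne3 was highest of the auxiliary genes with 2.71.

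The next comparison was the balance of the marks, total H3K4me3 against total H3K27me3, over the regions of the K27-K4 table. Values of the 2 antibodies are each relative to their own library, so a difference of 0 does not mean equal occupancy. In E14 cells the median difference (H3K4me3 minus H3K27me3) of 79 potassium channel promoters was -0.16, against 2.00 over 14706 genes, and 50 of the 79 (63.3%) were below 0, against 17.7% of all genes. By limma with Benjamini-Hochberg adjustment over all regions, at an absolute log2 difference above 1 and an adjusted p under 0.05, H3K27me3 was higher at 2 potassium channel promoters, with a background of 0.864% of genes. H3K4me3 was higher at 7, with a background of 64.8%. The count of 2 and 7 became 32 and 5 when each library was centred on its median, and 19 and 12 without the threshold on the difference. Of all genes, H3K27me3 was then higher at 11.4% and H3K4me3 at 54.1% with centred libraries, and at 5.61% and 71.3% without the threshold. Leaving out 1 of the 4 libraries left 1 library for a mark, and the number called rose or fell with the library left out.

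The promoters with more H3K27me3 were Kcnk15 and Kcns1. Kcnk15 (chr2:163849051-163860450), a tandem-pore subunit, had total H3K4me3 of -0.17 and -0.33 and total H3K27me3 of 0.80 and 0.74, a difference of -1.02 (SE 0.18, adjusted p = 0.00055). The silent subunit Kcns1 (chr2:164163151-164172450) had -0.16 and -0.40 against 0.82 and 0.66, a difference of -1.02 (SE 0.19, adjusted p = 0.00093). In both promoters each H3K27me3 library stood above each H3K4me3 library. The promoters with more H3K4me3 included Kcnk5, Kcnh8, Kcnt2, Kcnip2, Kcnab2 and Kcnk1. Kcnk5, an acid-sensitive leak channel, was the furthest, with 1.38 and 1.96 for H3K4me3 and -1.72 and -2.21 for H3K27me3, a difference of 3.64 (SE 0.32, adjusted p = 1.8e-05). The silent subunits had the lowest subfamily median, -0.50, and the Kcnh genes the highest, 0.14.

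**Figure D2:**
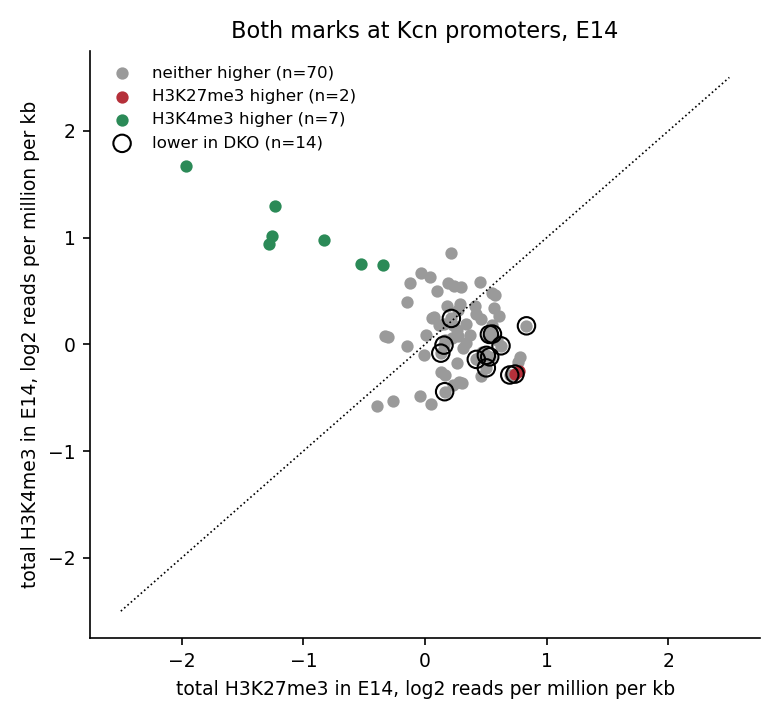
Mean total H3K27me3 (x axis) and mean total H3K4me3 (y axis) of 79 potassium channel promoters in E14 cells, in log2 RPM per kb over the K27-K4 regions, with a dotted line at equal values. The 7 promoters called with higher H3K4me3 stand apart at the upper left, and the 14 circled promoters, those later found lower in DKO, lie close to or below the line. Kcnt1 is drawn at its upstream start site, where no difference between genotypes was called.

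In the WT clones the median over 77 promoters was -0.06, against 1.07 over all genes, and 41 of 77 were below 0. H3K27me3 was higher at 0 promoters (background 1.04% of genes; 1 at an unadjusted p under 0.05 and 1 with a plain variance model), and H3K4me3 at 6, with a background of 36%. With the clone as a block, 2 were called with higher H3K27me3 and 10 with higher H3K4me3. The share of all genes called with the block was not taken, so these counts have no background. Among the 6 were Kcnn2 with 2.79, Kcnh8 with 2.69, Kcnip2 with 2.46, Kcnab2 with 2.44 and Kcnk1 with 2.08, and all of these but Kcnn2 were also called in E14 cells. The Kcnn2 regions of the E14 and WT tables lie at different start sites, so they are not a comparison of cells. Without the total H3K27me3 library of clone 57, or without that of clone 58, all calls were lost. More promoters were called without the total H3K4me3 library of clone 58. Values of clone 58 lay below those of clone 57 at the median promoter in each ChIP.

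The comparison of DKO with WT clones asked at which promoters the marks depend on DPPA2/4. In K4-K27, 9 of 77 potassium channel promoters tested (11.7%) were lower in DKO, with a background of 2.11% of promoters of all genes, and 0 were higher (background 0.00719%). In K27-K4, 14 of 79 (17.7%) were lower, with a background of 5.28%, and 0 were higher (background 0.0464%). The 9 were all among the 14. At an unadjusted p under 0.05, 0 promoters were higher in K4-K27 and 1 in K27-K4, and limma-voom on recovered reads called 0 higher in either. Among the 2893 genes with a region in all 4 WT tables, a set closer in kind to bivalent promoters, 6.84% were lower in K4-K27 and 9.64% in K27-K4. A lower value can come from fewer cells, alleles or nucleosomes with both marks, which cannot be told apart here.

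The median difference over potassium channel promoters was -0.62 in K4-K27, against -0.11 over all genes tested, and -0.48 in K27-K4, against -0.19. Both DKO clones lay below both WT clones at 35 of 77 promoters in K4-K27 (45.5%, against 13.6% of all genes) and at 34 of 79 in K27-K4 (43.0%, against 28.5%). Both DKO clones lay above both WT clones at 1 promoter in K4-K27 (1.30%, against 5.47% of all genes) and at 4 in K27-K4 (5.06%, against 14.7%). These counts rest on 2 clones a genotype. Leaving out 1 clone leaves 1 library in a group, and many calls depended on 1 clone. Fewer promoters were then called in K4-K27 whichever clone was left out. In K27-K4 more were called without WT clone 58, among them Kcnt2 as higher, and fewer without any other clone. The share of all genes called was not taken in these fits, so they have no background. With a plain variance model (eBayes without trend and robust estimation) 2 of the 14 K27-K4 calls were kept, Kcng2 and Kcns1. Kcng2 in both orders and Kcns1 in K27-K4 were called in all 15 settings tried.

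**Figure D3:**
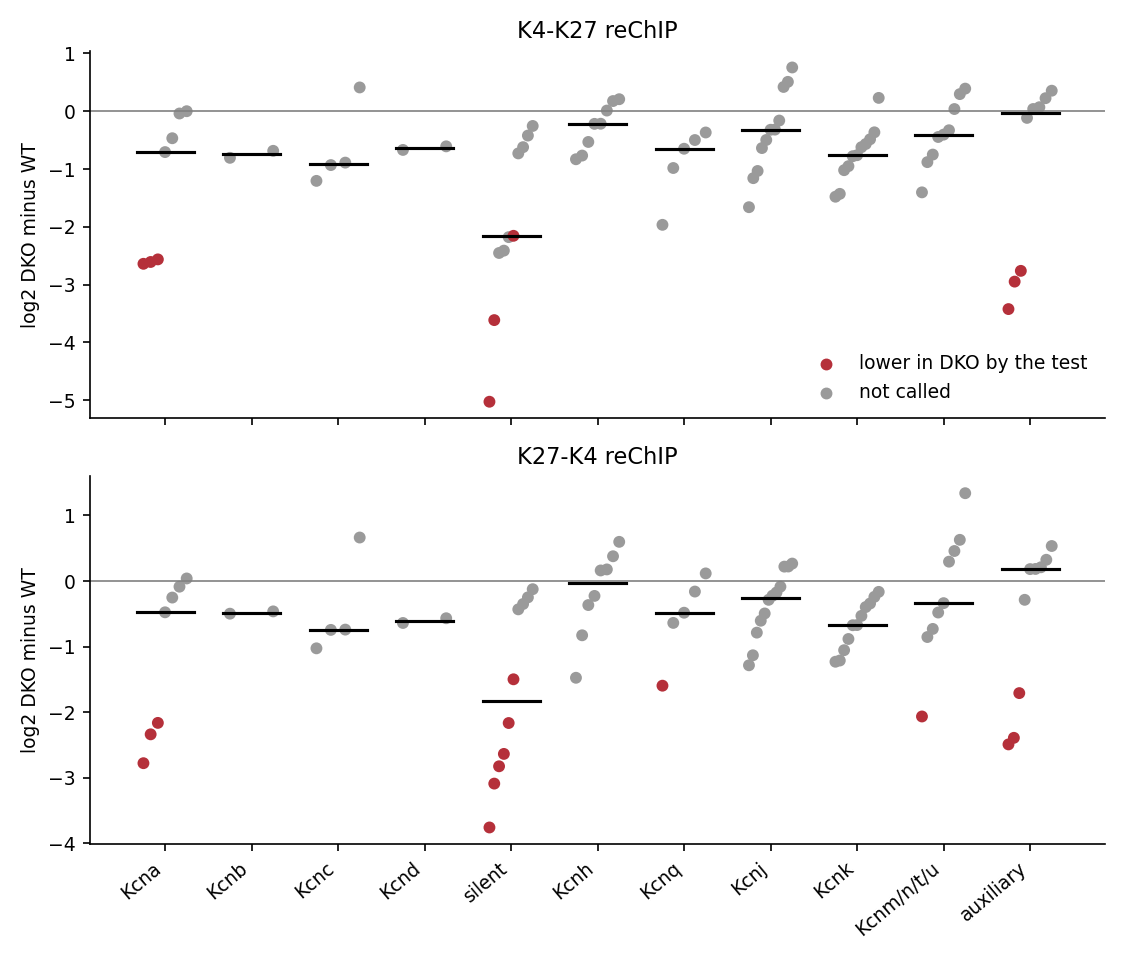
Log2 difference of DKO minus WT at each potassium channel promoter in K4-K27 (top, 77 promoters) and K27-K4 (bottom, 79 promoters) by subfamily, with red points called lower in DKO and a bar at the subfamily median. The silent subunits have the lowest medians, -2.17 and -1.83, and no red point is seen among Kcnb, Kcnc, Kcnd, Kcnh, Kcnj and Kcnk genes.

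By subfamily, 6 of the 10 silent subunits were lower in DKO in at least 1 of the 4 ChIPs, 3 of 7 Kcna genes, 3 of 10 auxiliary genes, 1 of 5 Kcnq genes and 1 of 10 Kcnm, Kcnn, Kcnt and Kcnu genes. Over all genes tested the share lower in at least 1 of the 4 ChIPs was 3.8%. None of the 2 Kcnb, 4 Kcnc, 2 Kcnd, 8 Kcnh, 12 Kcnj and 12 Kcnk genes tested was called, and no difference between subfamilies was tested. The number of genes in a subfamily is small, and a gene missing the threshold is not shown to be unchanged. The medians of the Kcnk genes, for example, were -0.76 in K4-K27 and -0.67 in K27-K4, with 10 and 11 of 11 promoters below 0.

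Among the silent subunits Kcng2 showed the largest difference of all potassium channel genes. In K4-K27 it had 3.77 and 3.54 in WT clones 57 and 58 and -1.22 and -1.52 in DKO clones 43 and 53, a difference of -5.02 (SE 0.75, limma adjusted p = 7.54e-08), or 32.6-fold. In K27-K4 the values were 3.85 and 3.01 in WT and -0.34 and -0.32 in DKO, a difference of -3.76 (SE 0.42, adjusted p = 2.57e-10). The WT and DKO clones were far apart in both orders. Kcnv1 followed, with 3.43 and 3.16 in WT and 0.19 and -0.82 in DKO for K4-K27 (difference -3.61, SE 0.65, adjusted p = 2.44e-05), and 3.13 and 2.43 against 0.04 and 0.25 for K27-K4 (difference -2.64). Kcnf1 kept more signal. Its K4-K27 values were 3.55 and 3.23 in WT and 1.57 and 0.90 in DKO (difference -2.15, SE 0.59, adjusted p = 0.0261), and the K27-K4 difference was -2.17. The DKO clones stayed below the WT clones in each of these.

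Of the reChIP orders, the silent subunits Kcns1, Kcnv2 and Kcng4 were called in K27-K4 and not in K4-K27. Kcns1 (chr2:164165101-164172150) had 3.27 and 2.41 in WT and -0.33 and -0.17 in DKO, a difference of -3.09 (SE 0.42, adjusted p = 6.60e-08). In K4-K27 it had 1.82 and 1.64 against -1.80 and 0.44, a difference of -2.41 with adjusted p = 0.22, and the DKO clones were far apart although both lay below WT. Kcnv2, a modulator of photoreceptor channels, had 2.74 and 2.10 against -0.76 and -0.06 in K27-K4 (difference -2.83, SE 0.45, adjusted p = 3.15e-06) and a difference of -2.45 in K4-K27 with adjusted p = 0.17. Kcng4 had 2.62 and 1.90 against 0.73 and 0.79 in K27-K4 (difference -1.50, SE 0.42, adjusted p = 0.029). In K4-K27 it had 2.67 and 1.71 against -0.11 and 0.13, a difference of -2.18 (SE 0.76, adjusted p = 0.15), so that the genotypes did not overlap in either order. All 3 were called in K4-K27 in one fit of all 16 antibody libraries, but Kcng4 lost its K27-K4 call there and with centred libraries. Limma's plain variance model called Kcns1 and Kcnv2 in K4-K27 and lost Kcnf1. In K27-K4 it lost Kcnv2 and Kcng4. The other silent subunits, Kcng1, Kcng3, Kcns2 and Kcns3, were not called, with K4-K27 differences from -0.73 to -0.25 and K27-K4 differences from -0.43 to -0.12. WT and DKO clones overlapped at each of these 4 in K27-K4, and in K4-K27 at all but Kcng3.

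**Figure D4:**
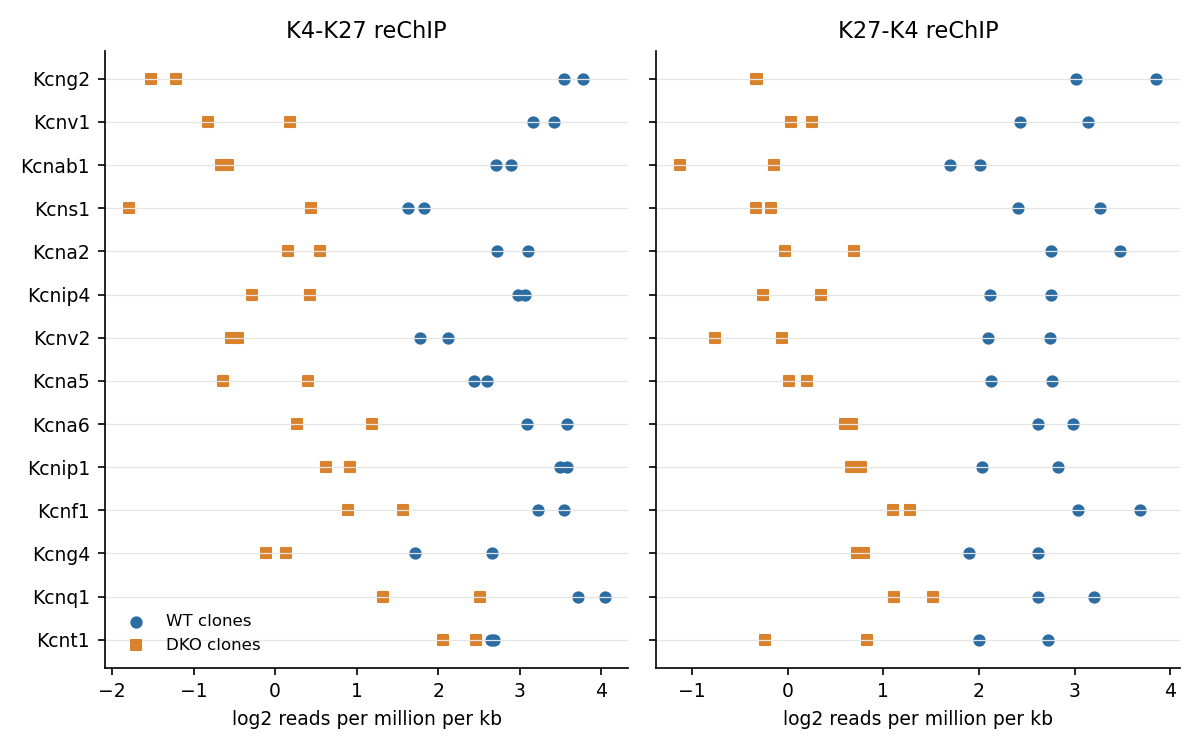
Values of both WT clones (circles) and both DKO clones (squares) at the 14 potassium channel promoters lower in DKO, in log2 RPM per kb, for K4-K27 (left) and K27-K4 (right), ordered by the mean difference. Squares lie to the left of circles in every row, with the widest gap for Kcng2 and the narrowest in K4-K27 for Kcnt1.

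Of the Kcna genes, which encode the pore subunits of Shaker-type channels, Kcna2, Kcna5 and Kcna6 were lower in DKO in both orders. Kcna2 (chr3:107099401-107105250), found along axons, had 3.47 and 2.75 in WT and -0.03 and 0.69 in DKO for K27-K4, a difference of -2.78 (SE 0.43, adjusted p = 2.03e-06). Kcna5 (chr6:126532951-126536100), the channel of the atrial ultrarapid current, had 2.76 and 2.13 in WT and 0.01 and 0.20 in DKO, a difference of -2.34 (SE 0.42, adjusted p = 4.31e-05). Kcna6 (chr6:126735301-126742650) had 2.98 and 2.62 in WT and 0.68 and 0.59 in DKO, a difference of -2.16 (SE 0.42, adjusted p = 0.00026). In each of the 3 genes both DKO clones lay below both WT clones. In K4-K27 the differences were -2.56, -2.64 and -2.61, close to each other. Kcna1, Kcna3, Kcna4 and Kcna7 were not called, with K4-K27 differences of 0.00, -0.71, -0.04 and -0.47.

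Called and uncalled Kcna genes lie side by side in the genome. On chromosome 6 the start site of Kcna1, mutated in episodic ataxia, lies 110 kb from that of Kcna5 and 94.9 kb from that of Kcna6. Kcna1 had 3.00 and 3.05 in WT and 3.48 and 2.58 in DKO for K4-K27, and 3.58 and 2.89 against 3.14 and 2.82 for K27-K4. The clones of the genotypes overlapped at Kcna1 in both orders, while Kcna5 and Kcna6 on either side of it were lower. On chromosome 3 Kcna2 and Kcna3 lie 65.4 kb apart. Kcna3 had 3.75 and 2.84 in WT and 2.97 and 2.66 in DKO for K27-K4, a difference of -0.48 (SE 0.54, adjusted p = 0.63), and its genotypes overlapped. Kcna10, 81.6 kb from Kcna2, had no region.

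Of the auxiliary genes, Kcnab1, Kcnip1 and Kcnip4 were lower in both orders. Kcnab1 (chr3:65108551-65112000), a cytoplasmic beta subunit of Kcna channels, had 2.01 and 1.70 in WT and -0.14 and -1.13 in DKO for K27-K4, a difference of -2.49 (SE 0.53, adjusted p = 0.00118). In K4-K27 its difference was -3.42 (SE 0.77, adjusted p = 0.00188). Kcnip4 (chr5:49522951-49527000), a calcium-binding partner of Kcnd channels, had 2.75 and 2.12 against -0.26 and 0.34 in K27-K4, a difference of -2.39 (SE 0.42, adjusted p = 3.24e-05), and -2.95 in K4-K27. Kcnip1 (chr11:33842101-33846750), of the same family, had 2.82 and 2.03 against 0.77 and 0.66 in K27-K4, a difference of -1.71 (SE 0.42, adjusted p = 0.00751), and -2.76 in K4-K27. The DKO clones lay below the WT clones in all of these. Kcnip2 and the Kcne genes tested were not called.

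Kcnq1 and Kcnt1 were called in K27-K4 and not in the other ChIPs. Kcnq1 (chr7:143104651-143113500), the pore subunit of the slow repolarising cardiac current, had 3.20 and 2.62 in WT and 1.51 and 1.11 in DKO, a difference of -1.60 (SE 0.45, adjusted p = 0.0351). Its K4-K27 values, 4.04 and 3.72 against 2.51 and 1.33, gave a difference of -1.96 with adjusted p = 0.083. This became a call with each library centred on its median and in one fit of all 16 antibody libraries. Those same settings lost its K27-K4 call. Without overlap of the genotypes in either order, Kcnq1 was the highest of the 14 in the WT clones in K4-K27. Kcnt1, a sodium-activated channel, was represented by different start sites in the tables. At the start site at 25877783 on chromosome 2 the differences were -3.28 in K4-K27 (SE 0.61, adjusted p = 5.49e-05), -2.07 in K27-K4 (SE 0.42, adjusted p = 0.00068), and -2.21 in total H3K4me3 (SE 0.60, adjusted p = 0.0148). At the start site at 25863795 upstream of it they were -0.40, -0.43 and 0.12, none called. This pair was looked at after its values had been seen. With a window of 0.5 kb, or over E14 regions, K27-K4 was read at the upstream site and Kcnt1 was not called.

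Below the threshold, the next largest mean falls over both orders were at Kcnj5 (-1.47), Kcnk2 (-1.35) and Kcnk4 (-1.24). Kcnj5, the partner of Kcnj3 in the heart, had 2.53 and 1.86 in WT and 0.79 and 1.03 in DKO for K27-K4, a difference of -1.29 (SE 0.42, adjusted p = 0.090), without overlap. The largest mean differences in the other direction included Kcnt2 (0.87), Kcnj2 (0.51), Kcnh8 (0.39) and Kcnip2 (0.38), none called. For Kcnip2 the direction in K4-K27 depended on the start site, with 0.23 at the site used and -0.56 at its other site. Kcnt2 had -0.07 and 0.19 in WT and 1.33 and 1.47 in DKO for K27-K4 (difference 1.34, SE 0.50, adjusted p = 0.14), with both DKO clones above both WT clones. Of these, Kcnt2, Kcnh8 and Kcnip2 were also among the promoters with more total H3K4me3 than H3K27me3 in E14 cells.

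The totals were compared in the same way. Total H3K4me3 was lower in DKO at 7 of 70 promoters (10%), with a background of 2.58%, and higher at 0 (background 0%). Of genes with a region in all 4 WT tables, the share lower was 7.74%, close to the share of potassium channel promoters. The 7 were Kcna2, Kcna5, Kcna6, Kcnab1, Kcng2, Kcnip1 and Kcnv1, all of them called in both reChIP orders. At Kcng2, total H3K4me3 was 2.96 and 1.51 in WT and -0.57 and -0.34 in DKO (difference -2.69, SE 0.57, adjusted p = 0.00067). At Kcna2 it was 2.47 and 1.29 against -0.98 and -0.02 (difference -2.38, SE 0.54, adjusted p = 0.0021). The genotypes did not overlap at either, although WT clone 58 lay well below WT clone 57. With 1 clone left out, which leaves 1 library in a group, more promoters were called without WT clone 58 and fewer without any other clone. All 7 calls were lost without either DKO clone. With libraries centred on their medians the count was 16. The share of all genes was not taken in these fits.

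Total H3K27me3 was lower at 3 of 65 promoters (4.62%), with a background of 2.57%, and higher at 0 (background 0.214%). Of genes with a region in all 4 WT tables, the share lower was 3.42%. The 3 were Kcna5, Kcnip4 and Kcns1. Kcns1 had 1.78 and 1.36 in WT and -0.22 and -0.36 in DKO (difference -1.87, SE 0.42, adjusted p = 0.00337), and Kcna5 had 1.64 and 1.13 against -0.42 and -0.14 (difference -1.66, SE 0.41, adjusted p = 0.0090). Kcnip4 had 1.34 and 0.83 against -0.11 and -0.36 (difference -1.32, SE 0.41, adjusted p = 0.0471), and at a different region of its promoter listed in the DKO table the difference was 0.72, not called. The median over potassium channel promoters was 0.01, against 0.08 over all genes, whereas in total H3K4me3 it was -0.33 against 0.06. Kcna5 was the 1 gene called in all 4 ChIPs, while Kcng2 and Kcnv2 had no total H3K27me3 region in the WT or DKO table. The count was lower whichever clone was left out, which leaves 1 library in a group, and it was 0 with libraries centred on their medians. At an unadjusted p under 0.05, 0 promoters were higher in either total.

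The regions above were listed because they were found in WT clones or, failing that, in DKO clones, a choice that favours lower values in DKO. The comparison was therefore repeated over regions of the E14 tables, an alternative added after the data had been seen. In K4-K27, 11 of 77 promoters were then lower (3.02% of all genes), the 9 above with Kcns1 and Kcnv2. In K27-K4, 14 of 79 were lower (4.19% of all genes), 13 of them shared, with Kcnj5 in place of Kcnt1, and Kcnt2 was higher, by 1.43 (SE 0.35, adjusted p = 0.00257), as were 64 of 14706 genes. Of the 7 promoters lower in total H3K4me3, Kcna2 and Kcna6 alone had an E14 region. Kcna2 was called (0.998% of all genes), and Kcna6 had a difference of -2.11 with adjusted p = 0.062. In total H3K27me3, Kcng2 (-1.79, SE 0.42, adjusted p = 0.00564) and Kcnv2 (-1.92, SE 0.42, adjusted p = 0.00213) were lower among 48 (1.87% of all genes). Of the 3 named for that mark, Kcna5 and Kcns1 had no E14 region, and Kcnip4 had -1.14 with adjusted p = 0.25.

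Over the E14 K27-K4 regions the levels of the cells can be set side by side. Kcnt1, among the 14 promoters lower in DKO, is read in E14 regions at its upstream start site, where it was not called. The median K27-K4 level of the 14 promoters lower in DKO was 2.43 in E14, 2.20 in WT and 0.04 in DKO, and that of 65 others was 2.40, 2.18 and 1.86. In K4-K27 the medians of the 14 were 1.88, 1.97 and -0.32. In E14 and WT cells the 14 were thus near the others in K27-K4. Their median total H3K27me3 was 0.52 in E14, against 0.23 in the others, and 1.08 in WT, against 0.92. Their median total H3K4me3 was -0.09 in E14, against 0.18, and 0.40 in WT, against 0.86. The E14 enrichment over IgG–IgG was 2.61 for the 14 and 2.66 for 63 others. The IgG–IgG library of WT clone 57 had a median of -0.29 over the regions of the 14, whose DKO level was -0.32 in K4-K27 and 0.04 in K27-K4. The 14 were chosen for low DKO values and no DKO clone had an IgG–IgG library, so a fall to background was not tested. Behind the 33 calls in the 4 ChIPs stood 54 to 1291 reads in a WT library and 10 to 590 reads in a DKO library. No region of a called promoter reached the promoter of another gene.

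Base composition was not used to choose the genes. In the 1001 bases around the start site, the promoters lower in DKO held a median of 41 CG dinucleotides (range 14 to 87), and the other tested promoters 57 (range 9 to 131). The same direction was seen over all genes tested in K27-K4, with a median of 44 in the 455 lower in DKO and 62 in the 8161 others, so the direction is shared with other genes. Within the silent subunits the groups did not overlap. The 6 that were lower held 14 (Kcng4), 17 (Kcnv2), 29 (Kcng2), 33 (Kcnf1), 40 (Kcnv1) and 42 (Kcns1), while the 4 others held 67 (Kcns2), 79 (Kcns3), 92 (Kcng1) and 131 (Kcng3). The Kcna genes showed no such split, with 19, 42 and 69 in those lower and 38 to 103 in the others. The auxiliary genes went the other way, with a median of 52 in the 3 lower and 44 in the 7 others tested. Kcnq1 with 87 and Kcna2 with 69 were lower in DKO at a high CG count. These are descriptions over few genes, without a test.

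**Figure D5:**
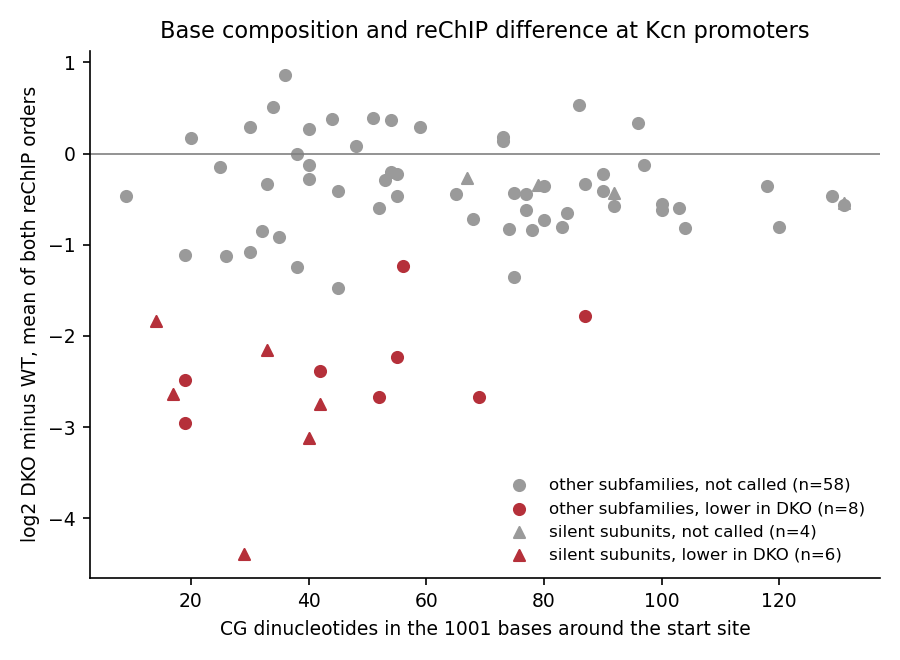
CG dinucleotides in the 1001 bases around the start site (x axis) and the log2 DKO minus WT difference averaged over both reChIP orders (y axis) for potassium channel promoters, red where lower in DKO and triangles for silent subunits. Red triangles lie at 14 to 42 CG and grey triangles at 67 to 131, while red circles spread up to 87.

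To show the bases behind these counts, RefSeq promoter sequences from 250 bases before to 50 bases after a start site were matched to 68 of the 92 genes, and 6 are given, chosen after their values had been seen. They pair the neighbours Kcna2 (lower in DKO) and Kcna3 (not called), and the silent subunits Kcnf1 and Kcns1 (lower) with Kcns3 and Kcng3 (not called). Capitals mark CG dinucleotides, and each sequence is written 5′ to 3′ on the strand of its gene. Positions in GRCm38.p6 are chr3:107101317-107101616 (plus strand), chr3:107035912-107036211 (plus strand), chr12:17176839-17177138 (minus strand), chr2:164171064-164171363 (minus strand), chr12:11150324-11150623 (minus strand) and chr17:83631846-83632145 (minus strand), in this order.
Kcna2: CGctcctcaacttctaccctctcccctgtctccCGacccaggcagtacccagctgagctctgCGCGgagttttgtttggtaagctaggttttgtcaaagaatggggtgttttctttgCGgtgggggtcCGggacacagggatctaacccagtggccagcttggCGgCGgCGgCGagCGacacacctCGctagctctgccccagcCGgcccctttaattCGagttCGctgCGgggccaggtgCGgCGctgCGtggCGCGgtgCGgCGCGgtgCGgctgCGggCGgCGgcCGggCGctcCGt
Kcna3: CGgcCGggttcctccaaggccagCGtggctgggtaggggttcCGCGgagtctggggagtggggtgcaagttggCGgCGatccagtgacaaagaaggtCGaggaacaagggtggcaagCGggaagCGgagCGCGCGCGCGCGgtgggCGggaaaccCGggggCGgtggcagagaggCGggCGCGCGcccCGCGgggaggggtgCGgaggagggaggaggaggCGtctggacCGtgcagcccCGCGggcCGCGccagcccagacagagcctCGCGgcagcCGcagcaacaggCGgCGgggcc
Kcnf1: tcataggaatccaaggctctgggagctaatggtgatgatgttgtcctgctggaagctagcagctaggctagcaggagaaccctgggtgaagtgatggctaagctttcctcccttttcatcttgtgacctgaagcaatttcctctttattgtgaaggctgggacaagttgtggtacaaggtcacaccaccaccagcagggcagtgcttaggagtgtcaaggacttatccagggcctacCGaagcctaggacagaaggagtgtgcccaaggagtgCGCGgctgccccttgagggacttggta
Kcns1: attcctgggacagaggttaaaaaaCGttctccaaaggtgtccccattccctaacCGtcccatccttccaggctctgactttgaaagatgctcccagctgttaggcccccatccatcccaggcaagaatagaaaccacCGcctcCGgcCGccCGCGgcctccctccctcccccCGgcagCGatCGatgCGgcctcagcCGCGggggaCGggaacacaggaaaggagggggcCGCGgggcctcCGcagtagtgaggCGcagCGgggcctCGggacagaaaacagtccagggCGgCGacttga
Kcns3: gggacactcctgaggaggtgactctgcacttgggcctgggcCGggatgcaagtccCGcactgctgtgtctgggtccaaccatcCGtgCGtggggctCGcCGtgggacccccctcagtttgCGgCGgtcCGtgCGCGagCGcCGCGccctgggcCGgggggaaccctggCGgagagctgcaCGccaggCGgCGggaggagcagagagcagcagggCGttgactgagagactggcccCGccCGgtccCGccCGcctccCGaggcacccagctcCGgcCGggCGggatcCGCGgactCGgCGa
Kcng3: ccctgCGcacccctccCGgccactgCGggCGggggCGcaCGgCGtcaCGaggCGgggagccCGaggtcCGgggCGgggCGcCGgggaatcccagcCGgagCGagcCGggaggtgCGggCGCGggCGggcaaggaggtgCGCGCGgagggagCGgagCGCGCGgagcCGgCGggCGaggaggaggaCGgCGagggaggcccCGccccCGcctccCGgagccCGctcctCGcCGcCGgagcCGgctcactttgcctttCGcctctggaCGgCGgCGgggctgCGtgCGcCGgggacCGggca

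The CG count of these 300 bases was 31 in Kcna2, 37 in Kcna3, 3 in Kcnf1, 22 in Kcns1, 32 in Kcns3 and 49 in Kcng3, against a median of 7 over 31396 autosomal promoter sequences of the same length. As many CG or more were held by 10.9%, 5.77%, 77.0%, 23.7%, 9.83% and 1.05% of those sequences. Kcnf1, with capitals almost only near its start site, and Kcng3, with capitals throughout, are the extremes. Kcna2 and Kcna3 were close in CG count in this window although only the first was lower in DKO. In the 1001 bases around the start site Kcna2 held 69 and Kcna3 103.

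Other ion channel lists, chosen beside these genes, were read for comparison. Of 25 voltage-gated calcium channel genes (Cacna, Cacnb and Cacng), 23 were tested in each reChIP order and 0 were called. Their medians were -0.43 in K4-K27 and -0.51 in K27-K4, against -0.62 and -0.48 for the potassium channel genes. Of 14 sodium channel genes, 9 were tested in each order and 0 were called, with medians of -0.26 in K4-K27 and 0.22 in K27-K4. Of 17 potassium channel partners without a Kcn symbol, Dpp6 and Lrrc26 were lower among 13 in K4-K27 and Lrrc26 among 15 in K27-K4. In total H3K4me3 and total H3K27me3, 0 genes of the 3 lists were called, where 2.58% and 2.57% of all genes were lower. In the reChIPs, 2.11% of all genes were lower in K4-K27 and 5.28% in K27-K4. At such shares, 0 calls in lists this small do not set them apart. Whether these lists differ from the potassium channel genes was not tested.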

How the data were processed

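Deposited tables of 26 libraries were used, and 32 further sample columns that matched no sample described here were left unused. Per the authors' methods, reads were trimmed (Trim Galore 0.6.6), aligned to mm10 (BWA 0.7.13, SAMtools 1.9), marked for duplicates (Picard 2.6.0) and quantified with a mapping quality above 20, reads extended by 200 bp and duplicates kept. The labels also list deepTools 3.5.0 and MACS2. The values that the authors deposited are log2 RPM per kb of region. Each value was a whole number of reads within 0.1 reads (100% up to 200 reads), and 0 reads had been entered as 0.9. The methods describe peaks called per replicate against IgG–IgG. All widths of the deposited regions are multiples of 150 bp, so how these regions were made is not fully given in the sources used here.

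The authors used a count model for DKO against WT. The deposited values are on a log2 scale, so limma 3.58.1 (R 4.3.3, lmFit, eBayes with trend and robust estimation) was used per ChIP over all regions of the WT and DKO tables, with Benjamini-Hochberg adjustment, after a trial on simulated data. Calls needed an absolute log2 difference above 1 and an adjusted p under 0.05. A gene's region came from the WT table, or from the DKO table where WT had none. Each p-value rests on the spread between 2 libraries a group, with the variance moderated towards a trend over all regions tested. It measures no spread beyond these clones or replicates. Libraries of the same clone or E14 replicate come from the same cells, and their deviations from the group means correlated at -0.089 in E14 (36235 regions) and 0.085 in WT (31231 regions). Figures used Python 3.11.15 and matplotlib 3.10.9.

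The genes, the subfamilies and the comparison lists were chosen with earlier results of these data known. Genes were named by rule: those called in any DKO test, the 5 largest mean falls and rises over both reChIP orders, the highest and lowest E14 enrichment of a subfamily, those with higher H3K27me3 in E14, and those with no region. Values of some genes that the rule names are not reported here. Alternatives covered scaling, the variance model, voom on recovered reads, a filter on low regions, the threshold, the libraries in the fit, the region rule, the window, the pairing and each library left out.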

Additional observations from a re-analysis of the deposited data

Results flagged for a closer look

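Kcnj4 and Kcnj11 were picked because their balance of total H3K4me3 and total H3K27me3 had opposite signs in E14 cells and WT clones. The sign had to differ in every library, so its regularity follows from the choice. A balance of 0 does not mean equal occupancy, so the sign depends on how libraries are scaled. Kcnj4, an inward rectifier, was 0.71 higher in E14 than in WT on the log2 scale of H3K4me3 minus H3K27me3, and Kcnj11, the pore of ATP-sensitive channels, was 0.55 higher. In E14 replicates 1 and 2 the balance was 0.44 and 0.33 at Kcnj4, and in WT clones 57 and 58 it was -0.13 and -0.52. At Kcnj11 it was 0.03 and 0.07 in E14, close to 0, and -0.45 and -0.54 in WT. The test of the difference (limma, cells by mark) gave adjusted p values of 0.81 and 0.89. Neither passed. Cells and sequencing batch cannot be told apart in this comparison, and WT libraries of clone 58 lay below those of clone 57 for both marks.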

How the results depend on the processing

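Between genotypes, leaving out 1 clone gave 2 to 5 calls in K4-K27, 3 to 31 in K27-K4, 0 to 22 in total H3K4me3 and 0 to 2 in total H3K27me3. One fit of all 16 antibody libraries gave 16 calls in K4-K27, 11 in K27-K4 (without Kcng4, Kcnip1 and Kcnq1) and 0 in total H3K27me3. Centring on library medians gave 12 in K27-K4 (without Kcng4 and Kcnq1), 16 in total H3K4me3 and 0 in total H3K27me3. Plain eBayes gave 2 in K27-K4, and E14 regions gave 1 in total H3K4me3. Of these settings, the share of all genes was taken for E14 regions alone. The difference of Kcnip4 in total H3K27me3 turned to 0.72 (adjusted p = 0.45) with the region from the DKO table first. For the balance of marks, E14 gave 37 calls after centring and 31 without the threshold on the difference. WT gave 12 with the replicate block, while the block left 9 in E14, and the share of all genes was not taken with the block. In both cells the count rose or fell when 1 library was left out. The median E14 enrichment was 1.39 against the median of the table in place of IgG–IgG, and 2.24 to 3.09 with 1 replicate. Of the values of single genes, 512 kept their side of the threshold, 125 lost it and 1 reversed. The cause was not tested. No paired analysis was possible for DKO against WT because the genotypes share no clone. With 2 clones a genotype and 10 reads in the lowest called DKO region, small differences may have been missed.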
